A study of Mus musculus with 6 samples.

Results

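The 46 genes described here encode proteins of the actin cytoskeleton: actin itself, the proteins that hold, nucleate, cap, cut and crosslink its filaments, the non-muscle myosin II motor, the linkers between filaments and membrane, and the intermediate filament protein vimentin. They were named by known role and were chosen with earlier results of the same 6 libraries in view, so the values of the comparison below helped to choose them and are given as a description. All 46 were found among the 16588 genes of the deposited count table, and all 46 passed the filter on low counts that kept 12150 genes for testing. Bulk RNA was sequenced from ILC2s, group 2 innate lymphoid cells sorted from the lungs of mice. The genotype label of 3 libraries is Cnr2 KO, and they are called KO-labelled below, while that of the other 3 is C57BL/6, and they are called WT. CB2, a cannabinoid receptor, is the product of Cnr2, and the study set activated ILC2s of the 2 genotypes side by side. All donor mice had been given 0.5 µg of recombinant mouse IL-33 through the nose on each of 3 days, cells were taken on day 4, and the sorted ILC2s of both groups were then kept in culture for 18 h. A low-input cDNA kit was used on 10 pg of RNA for each library. The sources used here do not give the age or sex of the mice, the construction of the Cnr2 allele, or whether replicates came from separate animals. The series title names adipose tissue, whereas the sample labels name lung.

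ILC2s are tissue-resident lymphocytes without rearranged antigen receptors that answer IL-33 by dividing, moving through the tissue and releasing type 2 cytokines. In lymphocytes, actin monomers are held in reserve by thymosins and profilin and are added to filaments by the Arp2/3 complex, which makes branched networks, or by formins, which make unbranched ones. Cofilin-family proteins, gelsolin and coronins take filaments apart, capping proteins stop their growth, and filamin, actinins and plastin tie them together. Myosin II pulls on the filaments, while talin, vinculin and the ezrin, radixin and moesin family connect them to integrins and to the plasma membrane.

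Total counts per library were 19399819, 18811836 and 17867541 in KO-labelled libraries, against 19056174, 129617689 and 19091963 in the WT libraries. The total of WT replicate 2 was 6.88 times the mean total of the remaining 5. The targeted gene went against its label: Cnr2 had 147, 139 and 135 counts in KO-labelled libraries, against 76, 503 and 60 counts in the WT libraries. In CPM, the count relative to a TMM-scaled library total, this was 7.49 ± 0.0627 in KO-labelled libraries and 3.69 ± 0.449 in WT libraries (SD, n = 3 each), a 2.01-fold higher level (edgeR quasi-likelihood adjusted p = 2.11e-05). The labels do not say which part of the gene was removed, and a count over the whole gene does not check a partial deletion, so every direction below is that of KO-labelled libraries. With these counts, a transcript that is kept in the knockout and an exchange of labels or columns cannot be told apart, and an exchange would turn every direction below. Of 13 ILC2 marker genes 13 were present, with a summed level of 13334 to 14433 CPM in KO-labelled libraries and 14266 to 14815 CPM in WT libraries. Most of that sum came from Il5, which was not called at 5354 CPM in KO-labelled libraries and 5285 CPM in WT libraries, and from Il2ra, which was called lower at 2680.1 CPM in KO-labelled libraries and 5451 CPM in WT libraries. In all, 9 of the 13 were called higher and 3 lower, where 33.1% of all tested genes were called higher and 33.2% lower. Thy1, the lowest of the 13 in level, had only 3.69 CPM in KO-labelled libraries and 0.920 CPM in WT libraries. Among the higher were the ILC2 transcription factor genes Gata3, at 1073 CPM in KO-labelled libraries and 288 CPM in WT libraries, and Rora, at 272 CPM in KO-labelled libraries and 121 CPM in WT libraries, while the other 2 called lower were Il13 and Areg. The part of these differences in those of the actin genes was not tested. In bulk RNA, fewer cells of a type and less RNA per cell cannot be told apart.

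A gene was called when its Benjamini-Hochberg adjusted p from edgeR was under 0.05 over all 12150 tested genes. By this rule 41 of the 46 actin cytoskeleton genes were called higher in KO-labelled libraries, where 33.1% of all tested genes were called higher. The rule called 2 of the 46 lower, Dstn and Rdx, against 33.2% of all tested genes called lower. The other 3, Tpm3, Ezr and Actn1, were not called. Of the 46 genes, 18 were called higher by a fold of 1.5 or more and 1 was called lower by as much, where the shares over all tested genes were 16.9% higher and 15.7% lower. At 2-fold, 5 were called higher and 0 lower, beside 8.89% and 7.47% of all tested genes. The 3 KO-labelled libraries lay entirely above the 3 WT libraries for 40 of the genes and entirely below them for 2, where 34.1% of tested genes lay entirely above and 34.8% entirely below. The 4 genes whose groups overlapped were Capza2, Wasf2, Tpm3 and Ezr. Most of these genes are abundant, with 42 of the 46 at 50 CPM or more on average over the 6 libraries. Of those 42, 38 were called higher and 2 lower, and of the 4390 tested genes at that level 36.6% were called higher and 44.7% lower. Since the 46 genes were chosen on these libraries, nothing is read from these counts beyond the values themselves.

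**Figure D1:**
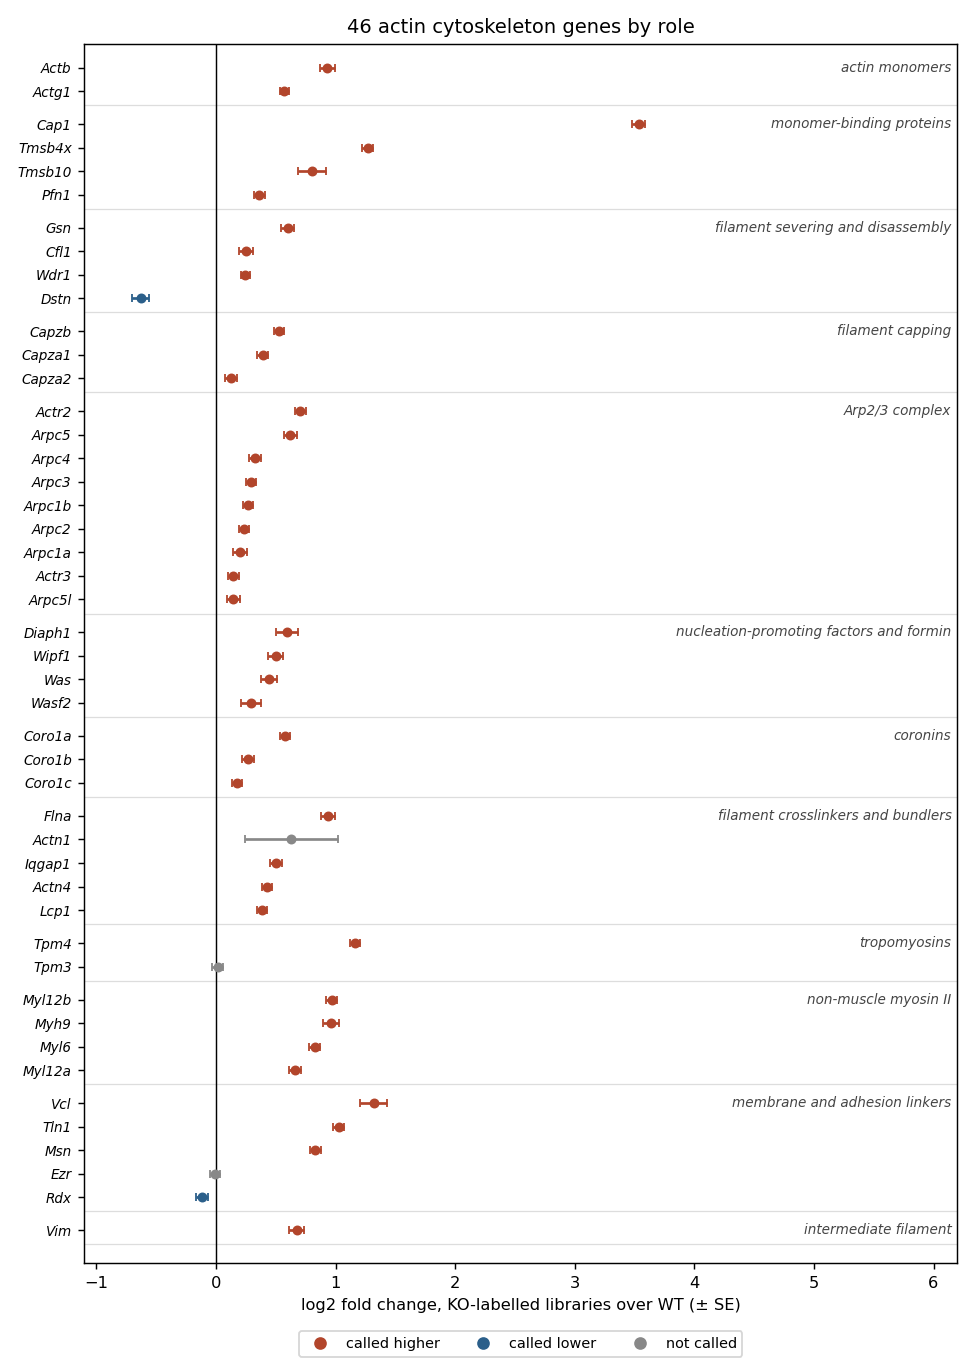
Log2 fold change, KO-labelled libraries over WT, of each of the 46 genes (points, with bars of 1 standard error), grouped by role. Cap1 stands at 3.53 and Dstn at -0.63, and the other 44 genes lie between -0.12 and 1.32.

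The median log2 fold change of the 46 genes was 0.50, with a range of -0.63 to 3.53. The same median was 0.01 over all 12150 tested genes and -0.05 over the 4390 tested genes of at least 50 CPM. Together the 46 genes took 6.45, 6.12 and 6.04% of all counts in KO-labelled libraries, against 3.91, 3.87 and 3.89% in WT libraries. The means were 6.21 ± 0.219% in KO-labelled libraries and 3.89 ± 0.0182% in WT libraries (SD, n = 3 each). The 2 actin genes accounted for a large part of both sums, and without them the shares were 3.58 ± 0.0377% in KO-labelled libraries and 2.37 ± 0.0159% in WT libraries. Each of the 12 role groups took a larger mean share of the counts in KO-labelled libraries. The smallest of these groups, the nucleation-promoting factors and the formin, took 0.0254 ± 0.00204% in KO-labelled libraries and 0.0187 ± 0.000347% in WT libraries.

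**Figure D2:**
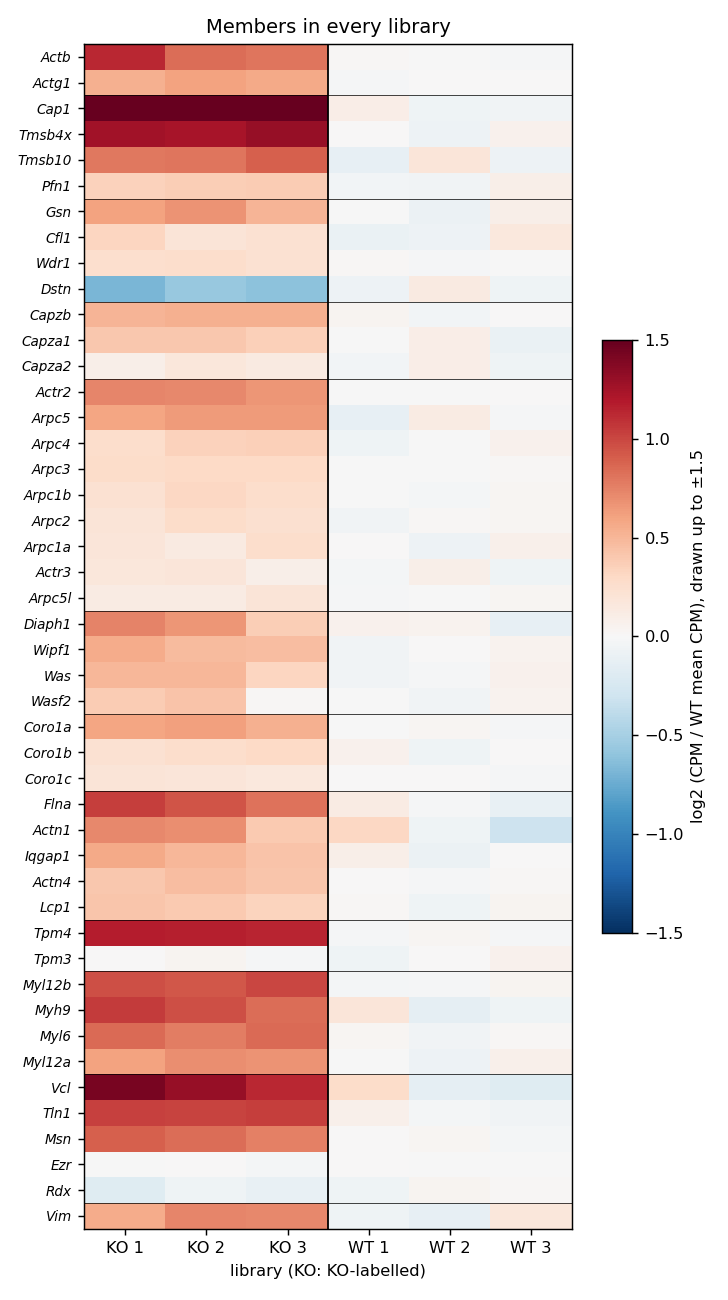
Level of each gene in each of the 6 libraries as the log2 ratio of its CPM to the WT mean CPM, with the colour scale ending at 1.5 in both directions. The 3 columns on the left are the KO-labelled libraries, where most rows are red, Dstn is blue, and Cap1 exceeds the scale.

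Some of the promoter windows of these genes hold a CArG box, the element bound by serum response factor (SRF), a transcription factor whose coactivators of the MRTF family are held back by free actin monomers. RefSeq promoter windows (GRCm38.p6, 250 bases before to 50 bases after each gene's start) were found for 42 of the 46 genes, and the CArG box was searched by its name on both strands, where it reads the same. No other motif was searched. A CArG box was found for 4 of the 42 genes (9.52%), namely Actg1, Arpc4, Myl6 and Vcl. Over all genes with a window 488 of 27025 (1.81%) had one, and over the tested genes with a window 138 of 9270 (1.49%) did. Counted by window and not by gene, 535 of 32851 (1.63%) held one. Of the other actin pathway genes listed further below, 11 of 210 with a window (5.24%) held one. Parts of the sequence upstream of the RefSeq start of these 4 genes are shown 5′ to 3′ on the gene's strand, with the CArG box in capitals, so that the boxes can be set beside the levels given below. For comparison, the 100 bases upstream of Cap1, the gene with the largest difference, are shown and hold none. The stretches lie at chr11:120348546-120348615 (minus strand, Actg1), chr6:113377863-113377902 (plus strand, Arpc4), chr10:128493020-128493089 (minus strand, Myl6), chr14:20929148-20929210 (plus strand, Vcl) and chr4:122886077-122886176 (minus strand, Cap1).
Actg1: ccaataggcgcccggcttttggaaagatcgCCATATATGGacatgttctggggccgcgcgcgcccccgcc
Arpc4: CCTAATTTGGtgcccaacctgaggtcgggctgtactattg
Myl6: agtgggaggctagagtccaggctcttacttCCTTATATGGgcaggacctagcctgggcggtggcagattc
Vcl: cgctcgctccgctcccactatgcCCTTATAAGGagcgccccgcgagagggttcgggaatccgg
Cap1: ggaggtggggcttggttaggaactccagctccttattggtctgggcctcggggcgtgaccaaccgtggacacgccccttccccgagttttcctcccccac
The stretches of Actg1, Arpc4, Vcl and Cap1 lie outside the genes as GENCODE M21 gives them, and the first 21 bases of the Arpc4 stretch lie in the untranslated part of Tada3 on the other strand. The RefSeq start of Myl6 differs: it lies within the GENCODE gene (chr10:128490860-128494145), so its stretch is not upstream of the whole gene. Of the Myl6 stretch, 26 bases are coding in 1 transcript, and the box itself lies in no exon except that of a transcript with a retained intron. The box lies 90 to 81 bases upstream of the RefSeq start in Actg1, 250 to 241 in Arpc4, 50 to 41 in Myl6 and 227 to 218 in Vcl. The genes Actb, Diaph1, Coro1b and Arpc5l had no entry. A match is a run of letters in this window and says nothing of whether SRF was bound in these cells.

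The actin monomers were the most abundant of the 46 genes. Actb, which encodes cytoplasmic β-actin, had 18113, 14728 and 14349 CPM in KO-labelled libraries, against 8379, 8242 and 8154 CPM in WT libraries. Replicate 1 of KO-labelled libraries was the highest of the 6, and the groups did not overlap. The log2 fold change was 0.93 (SE 0.061), or 1.90-fold, and it ranged from 0.82 to 0.99 when each library was left out. Actg1, which encodes cytoplasmic γ-actin, had 10166, 10690.5 and 10444 CPM in KO-labelled libraries, against 6949.8, 7036 and 7068 CPM in WT libraries. Its groups did not overlap either, and the log2 fold change was 0.57 (SE 0.036). The coding sequences of the pair are nearly identical and both have many processed copies in the genome, so the split of reads between them is uncertain. As CPM per kb of transcript, the scale on which levels of different genes are compared here, the ratio of Actb to Actg1 was 1.81, 1.40 and 1.40 in KO-labelled libraries, against 1.23, 1.19 and 1.17 in WT libraries.

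Among the proteins that bind actin monomers, Cap1 had the largest difference of all 46 genes. It encodes cyclase-associated protein 1, which helps cofilin to take filaments apart and recharges the freed monomers with ATP. Cap1 had 1363, 1379 and 1289 CPM in KO-labelled libraries, against 125, 111 and 112 CPM in WT libraries. The 2 groups were far apart and each was tight, with 1344 ± 47.6 CPM in KO-labelled libraries and 116 ± 7.44 CPM in WT libraries (SD, n = 3 each). The log2 fold change was 3.53 (SE 0.054), an 11.6-fold higher level. It ranked 59 among the log2 fold changes of all 12150 tested genes and 5 among the 4390 genes of at least 50 CPM. Per kb of transcript, Cap1 was 12 in order of level among the 46 genes in KO-labelled libraries and 38 in order in WT libraries. The gene lies at chr4:122859047-122886056 on the minus strand (GRCm38), 13.01 Mb from Cnr2. Of the other 3 of the 46 genes on chromosome 4, Wasf2 is 2.7 Mb from Cnr2 and 1.22-fold higher, Capzb is 3.27 Mb from it and 1.44-fold higher, and Tln1 is 92.33 Mb from it and 2.04-fold higher. Cap1 shares 129 exon bases with Ppt1 on the other strand, a gene at 117 ± 5.20 CPM in KO-labelled libraries and 67.1 ± 1.87 CPM in WT libraries. The sources used here do not say whether counting used strand, so reads over those bases cannot be split between the 2 genes. The relative of Cap1, Cap2, had 4, 2 and 0 counts in KO-labelled libraries, against 11, 88 and 19 counts in WT libraries. In CPM, Cap2 was close to the floor, at 0.104 ± 0.103 in KO-labelled libraries and 0.754 ± 0.222 in WT libraries. Unlike Cap1, it was called lower (edgeR adjusted p = 0.00105).

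The thymosins, small proteins that hold actin monomers out of filaments, were also higher. Tmsb4x, the main one in blood cells, had 3310.0, 3262 and 3418 CPM in KO-labelled libraries, against 1387, 1312 and 1450.2 CPM in WT libraries. Its groups did not overlap and its log2 fold change was 1.27 (SE 0.044), or 2.41-fold. Tmsb10 had 14.4, 14.5 and 15.5 CPM in KO-labelled libraries, against 7.62, 9.43 and 7.87 CPM in WT libraries. It too was separate between the groups, and the ratio of Tmsb4x to Tmsb10 per kb was 202 ± 4.53 in KO-labelled libraries and 151 ± 22.9 in WT libraries. Pfn1, encoding profilin 1, which delivers ATP-bound monomers to growing ends, had 1496, 1520.2 and 1539 CPM in KO-labelled libraries, against 1146, 1141 and 1257 CPM in WT libraries. Its difference was smaller than that of the thymosins, with a log2 fold change of 0.36 (SE 0.045).

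**Figure D3:**
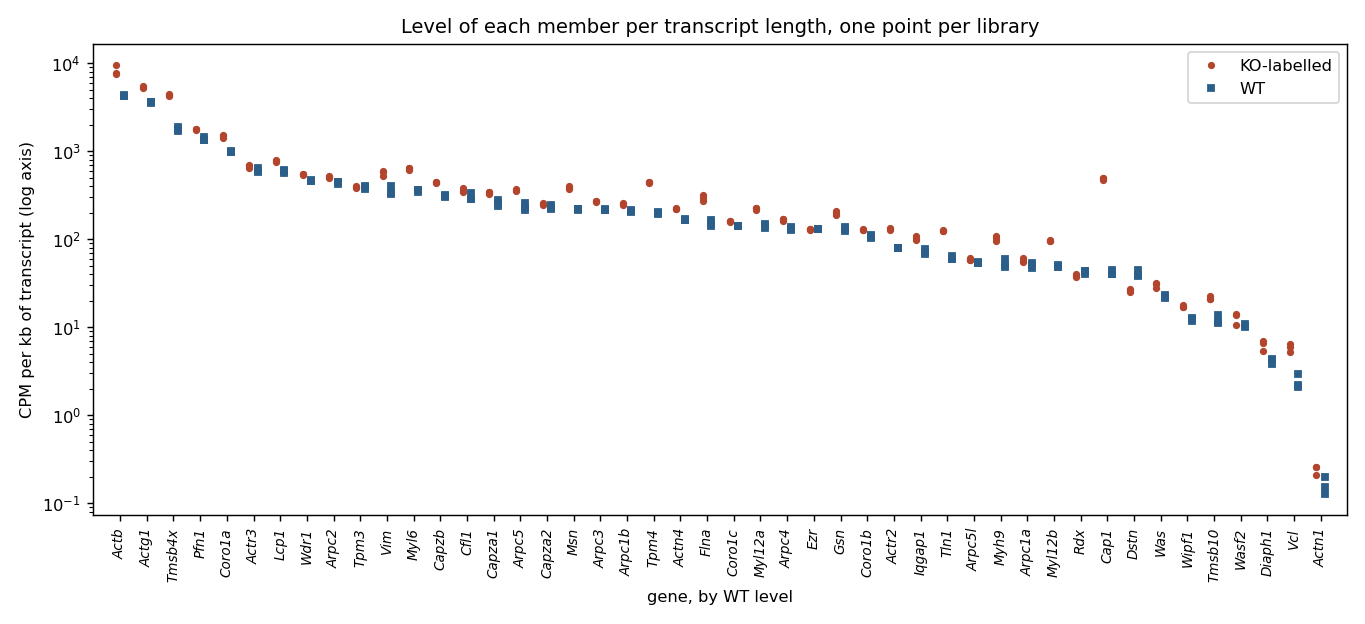
Level of each gene in CPM per kb of transcript (log axis), with 1 point for each library, ordered by the WT level. Circles are the KO-labelled libraries and squares are WT libraries, and Cap1 stands out with 485 CPM per kb in KO-labelled libraries against 42.0 in WT libraries.

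The genes for severing and disassembly of filaments did not all differ in the same direction. Cfl1, encoding cofilin 1, the main severing factor of lymphocytes, had 892, 816 and 832 CPM in KO-labelled libraries, against 667, 673 and 797 CPM in WT libraries. The groups were separate by a small margin and the log2 fold change was 0.25 (SE 0.059). Dstn, encoding destrin, a close relative of cofilin, had 48.2, 52.5 and 50.9 CPM in KO-labelled libraries, against 73.5, 85.4 and 74.2 CPM in WT libraries. It was the gene with the largest difference downward of the 46, at 1.55-fold lower (log2 fold change -0.63, SE 0.070). The ratio of Cfl1 to Dstn per kb was 13.6 ± 1.24 in KO-labelled libraries and 7.49 ± 1.16 in WT libraries, with no overlap between the groups. Cfl1 shares 468 exon bases with Snx32 on the other strand, which had 6.45 ± 0.411 CPM in KO-labelled libraries and 2.27 ± 0.466 CPM in WT libraries. Wdr1, whose product AIP1 works with cofilin, averaged 1698 ± 19.6 CPM in KO-labelled libraries and 1432 ± 18.8 CPM in WT libraries. Gsn, encoding gelsolin, which cuts filaments in the presence of calcium and stays on the cut end, averaged 514 ± 28.1 CPM in KO-labelled libraries and 339.9 ± 21.1 CPM in WT libraries, the highest fold of this role at 1.51.

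Capping protein is a dimer of an α subunit, made by Capza1 or Capza2, and a β subunit made by Capzb. Capzb had 745, 756 and 755 CPM in KO-labelled libraries, against 536, 509 and 524 CPM in WT libraries, with a log2 fold change of 0.52. Capza1 had 1089, 1089 and 1055 CPM in KO-labelled libraries, against 815, 881 and 769 CPM in WT libraries, with a log2 fold change of 0.39. Capza2 had 620.5, 661 and 641 CPM in KO-labelled libraries, against 569, 628 and 559.8 CPM in WT libraries. The groups of Capza2 overlapped, since WT replicate 2 was above replicate 1 of KO-labelled libraries. Its log2 fold change of 0.13 (SE 0.049) was no longer called with no filter on low counts (0.11), nor without replicate 2 (0.11) or 3 (0.13) of KO-labelled libraries, WT replicate 1 (0.10) or WT replicate 3 (0.09). The ratio of Capza1 to Capza2 per kb was 1.34 ± 0.0497 in KO-labelled libraries and 1.11 ± 0.0238 in WT libraries.

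The Arp2/3 complex, which starts a new filament as a branch on an old one, is built from the actin-related subunits Actr2 and Actr3 and the scaffold subunits Arpc1 to Arpc5. All 9 of its genes were called higher, beside 33.1% of all tested genes and 36.6% of those at 50 CPM or more. The amounts were small, with folds of 1.11 to 1.63 and a median log2 fold change of 0.27. Actr2 differed most and had 481, 477 and 457 CPM in KO-labelled libraries, against 289, 288 and 291 CPM in WT libraries. Actr3, the most abundant of the 9 per kb, had 1762, 1768 and 1659.9 CPM in KO-labelled libraries, against 1536, 1657 and 1498 CPM in WT libraries. The groups of Actr3 were separate by a narrow margin, and its log2 fold change of 0.15 was no longer called without WT replicate 3 (0.11). Arpc5 had 678, 700.5 and 703 CPM in KO-labelled libraries, against 415, 492 and 446 CPM in WT libraries. Its alternative subunit Arpc5l had 78.7, 78.3 and 82.3 CPM in KO-labelled libraries, against 71.2, 71.7 and 73.7 CPM in WT libraries. The ratio of Arpc5 to Arpc5l per kb was higher in all 3 KO-labelled libraries, at 6.08 ± 0.150 in these libraries and 4.37 ± 0.380 in WT libraries. Arpc5l, with a log2 fold change of 0.14, was no longer called with no filter (0.13), nor without replicate 3 of KO-labelled libraries (0.12), WT replicate 1 (0.13) or WT replicate 2 (0.14). For the other alternative pair of the complex the groups overlapped, and the ratio of Arpc1b to Arpc1a was 4.36 ± 0.281 in KO-labelled libraries and 4.14 ± 0.145 in WT libraries. Arpc1a, at 93.8 ± 4.41 CPM in KO-labelled libraries and 82.1 ± 4.46 CPM in WT libraries, was no longer called without WT replicate 2 (log2 fold change 0.15). Arpc1b averaged 777 ± 21.2 CPM in KO-labelled libraries and 646 ± 12.7 CPM in WT libraries. It shares 931 exon bases with Pdap1 on the other strand, whose level was 27.0 ± 2.47 CPM in KO-labelled libraries and 40.1 ± 5.95 CPM in WT libraries. The remaining subunits Arpc2, Arpc3 and Arpc4 had log2 fold changes of 0.23, 0.29 and 0.33.

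The genes that switch on nucleation were less abundant, all under 100 CPM in every library. Was, encoding the Wiskott-Aldrich syndrome protein that activates Arp2/3 in blood cells, had 66.6, 66.3 and 58.8 CPM in KO-labelled libraries, against 45.5, 46.6 and 49.3 CPM in WT libraries. Wipf1, whose product WIP binds and protects that protein, averaged 81.7 ± 2.81 CPM in KO-labelled libraries and 57.8 ± 2.20 CPM in WT libraries. Both were separate between the groups, with log2 fold changes of 0.44 and 0.50. Wasf2, encoding WAVE2, which activates Arp2/3 at the leading edge, had 76.9, 79.9 and 60.2 CPM in KO-labelled libraries, against 58.8, 57.4 and 61.7 CPM in WT libraries. Replicate 3 of KO-labelled libraries lay among the WT libraries, and the log2 fold change of 0.29 was no longer called after an offset for GC content and length (0.11). Diaph1, a formin, had 39.1, 37.1 and 30.2 CPM in KO-labelled libraries, against 24.4, 24.3 and 21.5 CPM in WT libraries, and its log2 fold change was 0.59 (SE 0.095).

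The coronins bind filaments and guide both Arp2/3 and cofilin. Coro1a, the form typical of blood cells, had 2594, 2635 and 2494 CPM in KO-labelled libraries, against 1712, 1758 and 1704 CPM in WT libraries, and its log2 fold change was 0.58 (SE 0.040). Coro1b had 237, 242 and 249 CPM in KO-labelled libraries, against 211, 192 and 203 CPM in WT libraries. Coro1c had 563, 559 and 548 CPM in KO-labelled libraries, against 495, 496 and 487 CPM in WT libraries. The KO-labelled libraries lay entirely above the WT libraries for all 3 genes, as they did for 34.1% of all tested genes. The difference was largest for Coro1a. The ratio of Coro1a to Coro1b per kb was 11.5 ± 0.555 in KO-labelled libraries and 9.24 ± 0.566 in WT libraries, and that of Coro1a to Coro1c was 9.24 ± 0.170 in KO-labelled libraries and 6.997 ± 0.0816 in WT libraries. Coro1b shares 432 exon bases with Ptprcap on the same strand, which had 234 ± 11.4 CPM in KO-labelled libraries and 223 ± 4.81 CPM in WT libraries.

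Of the crosslinkers, Flna differed most. It encodes filamin A, which joins filaments at wide angles and ties them to integrins, and had 2660.4, 2499 and 2278 CPM in KO-labelled libraries, against 1409, 1283 and 1200.0 CPM in WT libraries. The groups did not overlap and the log2 fold change was 0.93 (SE 0.058). Lcp1, encoding L-plastin, the filament bundler of white blood cells, had 3024, 2971 and 2871 CPM in KO-labelled libraries, against 2295, 2174 and 2340.2 CPM in WT libraries. Iqgap1, a large scaffold protein that binds filaments, averaged 761 ± 37.1 CPM in KO-labelled libraries and 537 ± 33.2 CPM in WT libraries. Actn4, encoding α-actinin 4, averaged 863 ± 18.1 CPM in KO-labelled libraries and 643 ± 9.32 CPM in WT libraries. Its relative Actn1 was close to the floor, at 0.904 ± 0.111 CPM in KO-labelled libraries and 0.592 ± 0.132 CPM in WT libraries. With so few counts its log2 fold change of 0.63 had an SE of 0.39, so a difference of that size was not detectable at this depth.

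The 2 tropomyosins, which lie along filaments and decide which other proteins may bind, had unlike values. Tpm4 had 949, 942 and 928 CPM in KO-labelled libraries, against 417, 431 and 414 CPM in WT libraries. Its groups were far apart, with a log2 fold change of 1.16 (SE 0.042), or 2.23-fold. Tpm3 had 876, 897 and 863 CPM in KO-labelled libraries, against 832, 871 and 909 CPM in WT libraries, so the groups overlapped and the log2 fold change was 0.01 (SE 0.044). The ratio of Tpm3 to Tpm4 per kb was 0.879, 0.907 and 0.886 in KO-labelled libraries, against 1.90, 1.93 and 2.09 in WT libraries. The order of the pair thus differed: Tpm4 was the higher of the 2 in every KO-labelled library, and Tpm3 was the higher in every WT library.

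Non-muscle myosin II is a motor of a heavy chain with an essential and a regulatory light chain. All 4 of its genes in the set were called higher, by 1.58 to 1.95-fold, beside 33.1% of all tested genes called higher. Myh9, the heavy chain, had 815, 768 and 704 CPM in KO-labelled libraries, against 445, 357 and 375 CPM in WT libraries. Myl6, the essential light chain, had 426, 403 and 425 CPM in KO-labelled libraries, against 242, 228 and 239 CPM in WT libraries. The groups of both were separate, with log2 fold changes of 0.96 and 0.83. Of the regulatory light chains, Myl12b had 206, 202 and 211 CPM in KO-labelled libraries, against 103, 105 and 109 CPM in WT libraries. Myl12a had 416, 443 and 436 CPM in KO-labelled libraries, against 271, 258.8 and 288 CPM in WT libraries. The difference was larger for Myl12b than for Myl12a, with log2 fold changes of 0.97 and 0.66, and the ratio of Myl12a to Myl12b per kb was 2.31 ± 0.1001 in KO-labelled libraries and 2.86 ± 0.107 in WT libraries. The coding sequences of Myl12a and Myl12b are very alike, so the split of reads between them is uncertain.

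The linkers to the membrane and to integrins were divided. Vcl, encoding vinculin, which strengthens the bond between talin and actin under load, had 34.0, 31.5 and 27.8 CPM in KO-labelled libraries, against 15.3, 11.5 and 11.1 CPM in WT libraries. After Cap1 it had the largest log2 fold change of the 46 genes, 1.32 (SE 0.11). Vcl shares 2090 exon bases with Ap3m1 on the other strand, which had 138 ± 7.57 CPM in KO-labelled libraries and 129 ± 1.29 CPM in WT libraries. Tln1, encoding talin 1, which activates integrins, had 1053, 1040.5 and 1057 CPM in KO-labelled libraries, against 544, 505 and 499 CPM in WT libraries, and its log2 fold change was 1.03 (SE 0.044). The ezrin, radixin and moesin genes, whose products tether filaments to the plasma membrane, did not move together. Msn had 1562, 1509 and 1417 CPM in KO-labelled libraries, against 844, 857 and 823 CPM in WT libraries. Ezr had 412, 416 and 406 CPM in KO-labelled libraries, against 416, 413 and 413 CPM in WT libraries. Rdx had 163, 177 and 172 CPM in KO-labelled libraries, against 178, 191 and 188 CPM in WT libraries. Msn was separate and higher with a log2 fold change of 0.83, Ezr overlapped at -0.01, and Rdx was separate and lower at -0.12 by a narrow margin. Rdx was no longer called with upper-quartile scaling (-0.08), nor without replicate 1 (-0.09) or 3 (-0.13) of KO-labelled libraries, WT replicate 2 (-0.10) or WT replicate 3 (-0.12). The ratio of Msn to Ezr per kb was 2.99 ± 0.122 in KO-labelled libraries and 1.67 ± 0.0353 in WT libraries, and that of Msn to Rdx was 10.0 ± 0.796 in KO-labelled libraries and 5.17 ± 0.217 in WT libraries. The intermediate filament gene Vim had 1151, 1298 and 1287 CPM in KO-labelled libraries, against 745, 719.8 and 878 CPM in WT libraries, with a log2 fold change of 0.67 (SE 0.063).

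**Figure D4:**
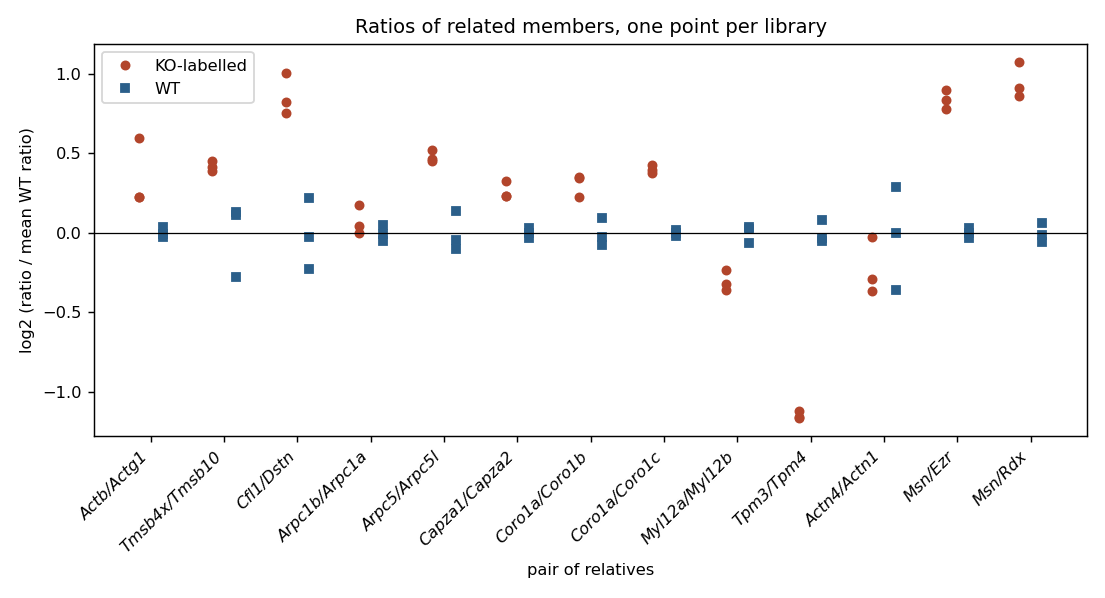
Ratios of 13 pairs of related genes in each library, each as the log2 of the ratio over the mean WT ratio, with circles for the KO-labelled libraries and squares for WT libraries. The groups are separate with the circles above the squares in 9 pairs and below them in 2, and they overlap in 2, Arpc1b/Arpc1a and Actn4/Actn1. The direction of a ratio depends on which gene is put first. Of all tested genes taken singly, 34.1% lay entirely above and 34.8% entirely below. The share for ratios of other genes was not computed.

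Among the 46 genes, 30 overlap another annotated gene in the genome and 16 do not. The log2 fold changes of the 46 had a Spearman rank correlation of 0.11 with transcript length and 0.19 with GC content, beside 0.15 and -0.02 over all tested genes with an annotated transcript. These are descriptions across genes, which are not independent replicates.

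Markers of other cell types were read in the same libraries, where 33.1% of all tested genes were called higher and 33.2% lower. Of 12 fibroblast and smooth muscle markers 9 were listed, with a summed level of 6.21 to 17.4 CPM in KO-labelled libraries and 6.37 to 16.2 CPM in WT libraries. Pdgfra, Actg2 and Des were not among the rows of the table. Acta2, smooth muscle actin, had 6.57, 6.57 and 1.72 CPM in KO-labelled libraries, against 5.04, 0.759 and 1.64 CPM in WT libraries. The groups overlapped, and the gene passed the threshold narrowly as higher (edgeR adjusted p = 0.0482). Of 8 macrophage and dendritic cell markers 5 were listed, with a sum of 25.7 to 29.2 CPM in KO-labelled libraries and 9.98 to 13.6 CPM in WT libraries, most of it from Xcr1. The 2 that were tested, Xcr1 and Cd68, were called higher, Cd68 at 3.28 CPM in KO-labelled libraries and 1.36 CPM in WT libraries. Adgre1 had 3, 19 and 16 counts in KO-labelled libraries and 0 in each WT library. Lyz2 had 4, 4 and 12 counts in KO-labelled libraries, against 1, 2 and 0 counts in WT libraries. Flt3 had 2, 1 and 0 counts in KO-labelled libraries, against 1, 10 and 3 counts in WT libraries. Of 6 T cell markers 4 were listed, with a sum of 18.5 to 22.1 CPM in KO-labelled libraries and 7.25 to 7.66 CPM in WT libraries, most of it from Cd3g. Cd3g was called higher, at 17.2 CPM in KO-labelled libraries and 4.65 CPM in WT libraries (edgeR adjusted p = 3.14e-10). Cd3e was also called higher, at 2.22 CPM in KO-labelled libraries and 1.27 CPM in WT libraries (edgeR adjusted p = 0.0222). The T cell receptor gene Trac was called lower, at 0.464 CPM in KO-labelled libraries and 1.48 CPM in WT libraries (edgeR adjusted p = 0.00128). Of 7 epithelial markers 4 were listed, with a sum of 45.8 to 51.9 CPM in KO-labelled libraries and 12.5 to 25.6 CPM in WT libraries. Most of it came from Epcam, called higher at 46.4 CPM in KO-labelled libraries and 10.95 CPM in WT libraries. For scale, the ILC2 marker Il7r had 55.1 CPM in KO-labelled libraries and 41.9 CPM in WT libraries. Krt18 was called lower, at 1.16 CPM in KO-labelled libraries and 3.43 CPM in WT libraries, and Krt8 had 0 counts in each KO-labelled library, against 164, 247 and 0 counts in WT libraries. The 1 B cell marker listed of 4, Cd79b, had 25.1 to 26.3 CPM in KO-labelled libraries and 16.1 to 17.2 CPM in WT libraries. Cd79b was called higher, by 1.52-fold (edgeR adjusted p = 3.61e-06). Of 5 erythroid markers 2 were listed, with a sum of 5.13 to 6.27 CPM in KO-labelled libraries and 0.735 to 1.27 CPM in WT libraries. The 1 that was tested, Hba-a1, was called higher, by 6.16-fold (edgeR adjusted p = 4.31e-08). The sums of the neutrophil, NK cell, endothelial and platelet markers were at most 2.62 CPM in any KO-labelled library and at most 1.49 CPM in any WT library. The part of these cells in the differences above was not tested.

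Beyond the 46 genes, a wider list of actin pathway genes was read in the same fit. Of 245 such genes with counts, 225 were tested, and 145 were called higher and 36 lower in KO-labelled libraries (edgeR, adjusted over all tested genes). As shares these are 64.4% and 16% of the 225, beside the 33.1% and 33.2% of all tested genes given above. At 50 CPM or more, 96 of 115 (83.5%) were called higher and 10 (8.7%) lower, beside 90.5% and 4.76% for the 46 genes. At 1.5-fold or more, 38.2% of the 225 were called higher and 10.7% lower, beside 39.1% and 2.17% of the 46. At 2-fold these shares were 19.1% and 6.22%, beside 10.9% and 0% of the 46. The median log2 fold change of the 225 was 0.41. Of 43 tested genes for tubulins, microtubule regulators, septins and the nuclear lamina, 24 (55.8%) were called higher and 4 (9.3%) lower, with a median of 0.31. The lists were drawn up by known role with earlier results of these libraries known.

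**Figure D5:**
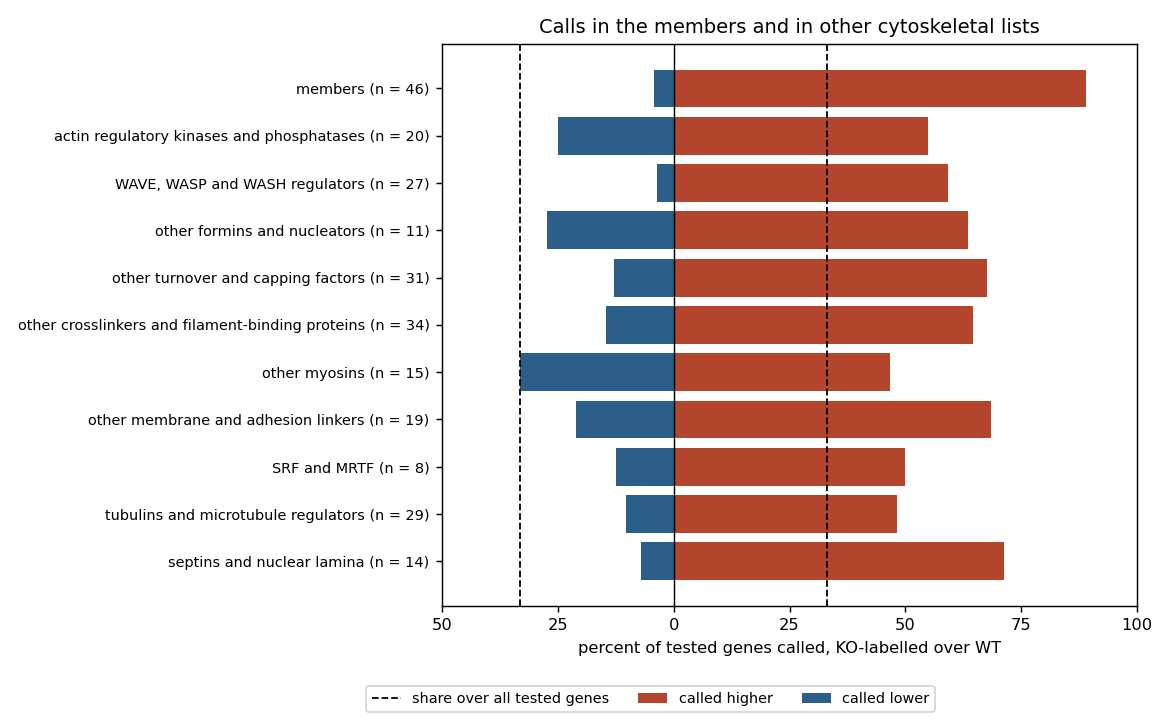
Percent of the tested genes of each list shown that were called higher (bars to the right) and lower (bars to the left) in KO-labelled libraries, with the number tested in brackets and dashed lines at the shares over all tested genes, 33.1% and 33.2%. The 46 genes described here are at the top with 89.1% higher and 4.35% lower, and the other lists shown range from 46.7 to 71.4% higher. These shares do not take level into account. Among genes at 50 CPM or more, 90.5% of those described here and 83.5% of the wider actin pathway list were called higher.

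Kinases and phosphatases that regulate actin, among them enzymes that act on cofilin and myosin, were called higher in 11 of 20 cases and lower in 5. These are 55% and 25%, beside 33.1% and 33.2% of all tested genes. Pdxp, encoding chronophin, a cofilin phosphatase, was 1.93-fold lower, at 31.0 ± 1.55 CPM in KO-labelled libraries and 59.8 ± 3.39 CPM in WT libraries (edgeR adjusted p = 8.95e-10). Ppp1r12a, the myosin-targeting subunit of myosin phosphatase, was 1.82-fold higher and Cit, citron kinase, 1.86-fold higher. Of 27 regulators of the WAVE, WASP and WASH complexes 16 (59.3%) were called higher and 1 (3.7%) lower. Nck2, an adaptor that recruits these complexes, was 2.36-fold higher, Nckap1 2.10-fold higher and Cdc42se2 2.09-fold higher.

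Other formins and nucleators were called higher in 7 of 11 cases (63.6%) and lower in 3 (27.3%), beside 33.1% and 33.2% of all tested genes. Spire1, which nucleates filaments together with formins, had 7.19, 8.76 and 6.32 CPM in KO-labelled libraries, against 29.4, 27.9 and 29.7 CPM in WT libraries, a 3.89-fold lower level (edgeR adjusted p = 1.14e-11). The formins Daam1 and Diaph2 were 2.83-fold and 2.48-fold higher. Other turnover and capping factors were called higher in 21 of 31 cases (67.7%) and lower in 4 (12.9%). Add3, an adducin that caps filaments at the membrane skeleton, was 4.10-fold higher, at 62.7 ± 1.78 CPM in KO-labelled libraries and 15.1 ± 0.815 CPM in WT libraries. Coro2b was 3.03-fold higher and Carmil1, which regulates capping protein, 2.94-fold higher.

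Other crosslinkers and filament-binding proteins were called higher in 22 of 34 cases (64.7%) and lower in 5 (14.7%), beside 33.1% and 33.2% of all tested genes. Lsp1, a filament-binding protein of white blood cells, had 201, 193 and 191 CPM in KO-labelled libraries, against 65.6, 63.6 and 62.8 CPM in WT libraries (edgeR adjusted p = 3.09e-15). The pair of related membrane-bound proteins Marcks and Marcksl1 fell: Marcksl1 to 3.87 ± 0.147 CPM in KO-labelled libraries, against 16.03 ± 1.86 CPM in WT libraries. Marcks was 3.93-fold lower (edgeR adjusted p = 1.58e-07).

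Of 15 other myosins 7 (46.7%) were called higher and 5 (33.3%) lower, beside 33.1% and 33.2% of all tested genes. The share called lower was thus close to that over all tested genes. Myo6, the myosin that walks toward the pointed end of filaments, had 433, 412 and 479 CPM in KO-labelled libraries, against 55.0, 66.4 and 61.8 CPM in WT libraries, 7.16-fold higher (edgeR adjusted p = 9.32e-17). Myo10, a motor of filopodia, was 4.63-fold lower, at 2.67 ± 0.677 CPM in KO-labelled libraries and 12.3 ± 0.482 CPM in WT libraries. Myo1d was 3.17-fold higher. Other linkers and adhesion proteins were called higher in 13 of 19 cases (68.4%) and lower in 4 (21.1%). Zyx, encoding zyxin, was 2.21-fold higher, the talin partner Apbb1ip (RIAM) 2.07-fold higher and Skap1 1.97-fold higher.

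The regulators around SRF differed in opposite directions. Srf itself had 61.0, 61.9 and 65.9 CPM in KO-labelled libraries, against 111, 116 and 120.4 CPM in WT libraries, a 1.84-fold lower level (edgeR adjusted p = 9.07e-11). Its coactivator Mrtfa had 77.2, 79.0 and 76.7 CPM in KO-labelled libraries, against 41.8, 40.5 and 40.1 CPM in WT libraries, a 1.91-fold higher level (edgeR adjusted p = 9.75e-11). Fhl2, a LIM protein that binds SRF, was 2.75-fold higher. Of the 8 tested genes of this list 4 (50%) were called higher and 1 (12.5%), Srf, lower, beside 33.1% and 33.2% of all tested genes.

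Outside the actin system, tubulins and microtubule regulators were called higher in 14 of 29 cases (48.3%) and lower in 3 (10.3%). The shares over all tested genes were 33.1% and 33.2%. Tuba8 had 105, 110.0 and 82.4 CPM in KO-labelled libraries, against 12.6, 12.5 and 16.2 CPM in WT libraries, 7.35-fold higher (edgeR adjusted p = 3.25e-14). Map4 was 2.00-fold higher and Tuba1a 1.76-fold higher, while Tuba1b was not called, at 3412 CPM in KO-labelled libraries and 3348 CPM in WT libraries. Tubulin genes are closely related, so the split of reads between them is uncertain. Septin and nuclear lamina genes were called higher in 10 of 14 cases (71.4%) and lower in 1 (7.14%), with Septin1 1.96-fold higher. Syne2 and Sun2, whose products join the cytoskeleton to the nuclear envelope, were 3.20-fold and 2.19-fold higher.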

How the data were processed

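RNA was measured by bulk sequencing in 3 KO-labelled and 3 WT libraries, grouped by their titles. The authors deposited 1 table of expected counts per gene, that is, estimates with fractions allowed (whole to within 0.02 for 59.08 to 81.23% of values). The tools named, per the submitters' processing notes, are Partek 10.0, STAR 2.7.8 and DESeq2, with mm10 as the build and no role for any. How reads were counted, and whether by strand, is not given in the sources used here.

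Counts were rounded and tested with edgeR 4.0.16 in R 4.3.3 (quasi-likelihood, TMM scaling, filterByExpr with a minimum count of 10 and a minimum total of 15, genotype as the only term), with Benjamini-Hochberg adjustment over all 12150 genes tested. The script was tested on simulated data. A standard error (SE) is the absolute log2 fold change divided by the square root of the F statistic. Levels per kb divide CPM by the length of the principal transcript in GENCODE M21 (GRCm38), in which 16572 of 16588 genes matched. The members and all gene lists were chosen with earlier results of these data known. Values in every library are given for the called members with the largest differences (up to 6 a direction), the most abundant members and the pairs whose ratios separate the groups. For each other list described, up to 3 called genes of at least 5 CPM with separate groups and the largest differences are named, and further genes (Cap2, Acta2, Tuba1b and overlapping neighbours) were named after their values were seen. Alternatives were DESeq2 size factors, upper-quartile scaling, other filters, DESeq2 1.42.0, limma-voom (limma 3.58.1), a replicate block, an offset for GC content and length, thinning of WT replicate 2, other thresholds, and leaving out each library. Between replicates the chi-square per gene was 4.15 to 8.07, above sampling noise, so no pair was treated as 1 library deposited again, which does not show that they came from separate animals. The p-values measure only how these samples vary, which may be technical. The results of 3 lists that count in the wider actin pathway totals are not reported here.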

Additional observations from a re-analysis of the deposited data

How the results depend on the processing

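Over all settings, 717 of 735 log2 fold changes of the 46 genes stayed on the same side of the threshold, 18 in 6 genes (Actr3, Arpc1a, Arpc5l, Capza2, Rdx, Wasf2) lost the call, and 0 of the called genes changed sign. Of the uncalled, Ezr changed sign in 2 of 16 settings (-0.03 to 0.03) and Tpm3 in 3 (-0.03 to 0.08). The 480 values of the 30 other named genes kept direction and call. Genes of the 46 called higher numbered 18 at 1.5-fold and 5 at 2-fold, against 41 without a fold limit. Those called lower numbered 1 with upper-quartile scaling, 1 at adjusted p under 0.01, 1 at 1.5-fold and 0 at 2-fold, against 2. Leaving out each library gave 39 to 41 higher and 1 to 2 lower. Over all tested genes, leaving out each library gave 3749 to 3869 higher and 3771 to 3957 lower. Tubulin, microtubule, septin and lamina genes called lower numbered 9 with the GC and length offset, also with the replicate block added, against 4; the cause was not tested. Without mitochondrial and ribosomal protein genes the share of the 46 genes was 6.34% in KO-labelled libraries and 4.01% in WT libraries, by the smaller denominator. With them these shares were 6.21% and 3.89%. Ribosomal protein genes took 1.60 to 1.83% of the counts in KO-labelled libraries and 2.45 to 2.61% in WT libraries. Leaving out each library gave a median of 0.47 to 0.52, shares of 6.08 to 6.29% in the KO-labelled libraries and 3.88 to 3.90% in WT libraries, 138 to 143 other actin pathway genes higher and 29 to 36 lower, and 21 to 24 and 4 to 5 of the tubulin to lamina list. Deviations of same-numbered libraries from their group means correlated with r of 0.07, 0.01 and 0.04, and those of other pairs with r of -0.07 to 0.03. WT replicates 1 and 3 correlated best with the same-numbered KO-labelled library, and WT replicate 2 with KO-labelled replicate 3. Values this small do not settle whether same-numbered libraries were prepared together. With the replicate block, 41 of the 46 genes were called higher and 2 lower, and 4061 and 4113 of all genes. Depth limits Actn1, the only one of the 46 genes under 1 CPM on average.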
